A study of Mus musculus with 3072 samples.

Results

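The Ms4a genes encode small proteins that cross the membrane several times and sit close together on 1 chromosome. The members described here were chosen by name: Ms4a4a, Ms4a4c, Ms4a6b, Ms4a6c, Ms4a6d and Ms4a7, 6 of the 12 genes with that name stem among the 29474 genes of the count table. They were followed in single sorted brain cells across 6 groups of mice, and in cells with and without reads of the class II genes that present antigen to T cells. Of the 6 members 3 were common: Ms4a6d had a read in 598 of 1713 cells (34.9%), Ms4a6b in 22.3% of them and Ms4a6c in 9.46%. The others were rare, with Ms4a4c in 18 cells, Ms4a7 in 5 and Ms4a4a in 1.

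The family is best known from CD20, the B cell surface protein encoded by Ms4a1. In microglia, the macrophages that live in the brain, and in related macrophages the other members are found on the surface and on inner membranes, where some take part in immune signalling. The human gene cluster carries variants tied to the risk of late-onset Alzheimer's disease and to the amount of soluble TREM2, the shed part of a microglial lipid receptor. Ms4a7 and Ms4a4a are often used as marks of the macrophages at the borders of the brain.

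All mice were male. APP/PS1 mice carry the APPswe and PS1dE9 transgenes and form amyloid plaques, and ApoeKO mice lack Apoe, which encodes the lipid carrier apolipoprotein E. The double line was bred from APP/PS1 mice and a breeder of the Apoe-null line, and all lines were moved between laboratories and kept there for at least 1 month. The groups were the cortex of C57BL/6 mice at 18 months (19.03% of the cells), C57BL/6-ApoeKO cortex at 18 months (18.27%), APP/PS1 cortex at 17 months (18.16%), APP/PS1-ApoeKO cortex at 18 months (9.87%), APP/PS1 hippocampus at 17 months (15.94%) and APP/PS1-ApoeKO hippocampus at 18 months (18.74%). APP/PS1 at 18 months was not analysed here, so age differs by 1 month wherever APP/PS1 enters a comparison between genotypes. Live CD11b+ cells were sorted, and their polyadenylated RNA was read by a SmartSeq2 method without molecular barcodes. No label says which animal a cell came from, so each group is 1 sample, cells are not replicates, and no p-value was computed between single groups. Groups are given below in the order just listed.

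Summed reads ranged from 74767907 in APP/PS1-ApoeKO cortex to 241536311 in C57BL/6 cortex, and the median cell held 442917 to 765704 reads. A group with no read of a gene has an upper limit of 3 reads, or 0.012 to 0.040 RPM, reads per 1000000 reads of the summed library. Apoe itself stood at 485, 2.96, 13406, 0.067, 11919 and 0.745 RPM, low in the 3 groups labelled ApoeKO. All 10 homeostatic microglia genes examined had reads in every group, with a summed level of 39230 to 50655 RPM. Of 8 monocyte genes the summed level was 3.25 to 28.6 RPM, and no cell held 10 reads of at least 2 of them. Genes of border-associated macrophages summed to 304.02 to 699.6 RPM, mostly Stab1, with no read of Lyve1, and 77 cells held 10 reads of at least 2 of these 10 genes. The 6 B cell genes summed to 443.3 to 720.7 RPM, although Pax5 had no read at all. Both sequencing lanes of C57BL/6 cells also held C57BL/6-ApoeKO cells, and the APP/PS1 tissues likewise had both lanes in common. Among the cells used, those of APP/PS1 and of APP/PS1-ApoeKO mice shared no lane with another genotype. Lane and genotype therefore cannot be told apart in comparisons of either with another genotype.

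All 6 genes lie on chromosome 19 in the GENCODE annotation of GRCm38, the assembly of the build the submitters name. In order along the chromosome, Ms4a7 spans chr19:11321039-11336146 (minus strand), Ms4a4a chr19:11375523-11392790, Ms4a4c chr19:11404770-11427246, Ms4a6c chr19:11469366-11482192, Ms4a6b chr19:11516512-11531256, and Ms4a6d chr19:11586604-11604849 (minus strand). The 3 genes of the Ms4a6 group are close copies of each other. Coding sequences of Ms4a6b and Ms4a6c were identical at 86.4% of 641 aligned bases, Ms4a6b and Ms4a6d at 81.8% and Ms4a6c and Ms4a6d at 79.6%. The other 12 pairs of members were identical at 60.8% to 68.9% of aligned bases. The first 60 coding bases, the start of each protein, show how near the 3 copies are. Capitals mark bases that differ from Ms4a6d.

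Ms4a6d: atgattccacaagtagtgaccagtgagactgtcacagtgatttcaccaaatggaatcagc
Ms4a6b: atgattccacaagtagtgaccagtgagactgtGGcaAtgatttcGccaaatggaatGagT
Ms4a6c: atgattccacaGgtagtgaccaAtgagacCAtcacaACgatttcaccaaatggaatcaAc

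Ms4a6b differed from Ms4a6d at 6 and Ms4a6c at 7 of these 60 bases, against 42 of 60 for Ms4a4c and for Ms4a7. Reads can therefore be shared between copies. Of all stretches of 50 bases in the transcripts of Ms4a6d, 2.54% also occurred in a transcript of another gene, and for Ms4a6b it was 3.57%. For Ms4a6c it was 51.4%, mostly with BE692007, an overlapping gene on the other strand, which shared 993 such stretches. Ms4a6b shared such stretches with Ms4a6c and Ms4a6d. Neither the labels nor the notes say how such reads or their strand were handled, so every Ms4a6c value below is uncertain. BE692007 had reads in 38 cells, at 1.21 to 9.85 RPM by group.

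**Figure D1:**
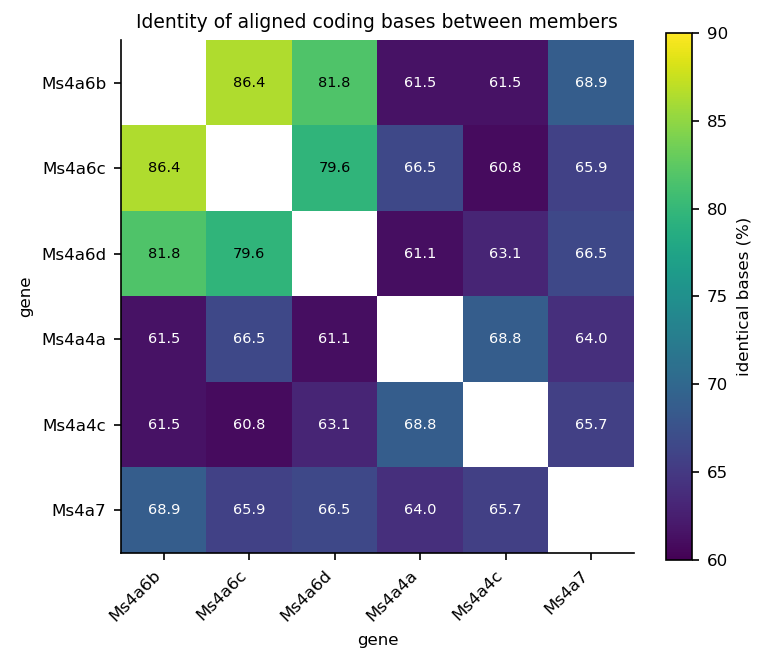
Percent of aligned coding bases that are identical between each pair of the 6 Ms4a members (both axes list the genes; colour and cell text give the percent). The Ms4a6b, Ms4a6c and Ms4a6d pairs stand at 79.6% to 86.4%, and all pairs with Ms4a4a, Ms4a4c or Ms4a7 at 68.9% or less.

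The stretches just before the annotated starts also share letters, shown because 73 of 1713 cells held both Ms4a6b and Ms4a6c, as given below. GGAAGT, the core of sites bound by the macrophage factor PU.1, was searched on both strands of the 250 bases before each start given by RefSeq for GRCm38.p6. It was present for Ms4a4c, Ms4a6c and Ms4a6b, for 1 of 2 starts of Ms4a7, and not for Ms4a4a. The letters alone occur in 19.7% of all 32851 such windows. The 30 bases around it follow, read along the gene, with the match in capitals (ACTTCC is the same match on the opposite strand). The match begins 16 bases before the start in Ms4a6c, 85 in Ms4a6b and 15 in both Ms4a4c and Ms4a7. Ms4a6b has another match, 43 bases before its start on the opposite strand, which is not shown.

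Ms4a6c, chr19:11469337-11469366, plus strand: ggactttctgatataGGAAGTacaggcaca
Ms4a6b, chr19:11518459-11518488, plus strand: ggactttctgatataGGAAGTacaggcaca
Ms4a4c, chr19:11407631-11407660, plus strand: cttagtcagtggaggGGAAGTcctggcaca
Ms4a7, chr19:11336147-11336176, minus strand: tgtgtaatcacgagtACTTCCggggaaagc

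The Ms4a6b and Ms4a6c stretches belong to a run of 48 identical bases, which was found in 2 of the 32851 windows, theirs. Of these 48 bases 36 in Ms4a6b, and 1 in Ms4a6c, lie inside an exon of the gene in the GENCODE annotation, which starts Ms4a6b further upstream. A pair of GAAA repeats with 2 bases of any kind between them is a form of the interferon-stimulated response element. It was searched on both strands and was in no window of the members searched and in 2.98% of all windows. TTCNNNGAA, a form of the STAT site, was likewise in no window of these members and in 7.02% of all windows. These matches describe letters, and none was tested as a bound site. Ms4a6d had no such window here and was not searched for any of the motifs.

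Ms4a6d was the most abundant member per length. Its level per kilobase of exon (RPKM) was 84.7, 103.04, 70.5, 107.02, 66.8 and 105.8 in the 6 groups, against 5.28 to 37.6 for Ms4a6b, 3.01 to 16.2 for Ms4a6c and 0.247 to 1.66 for Ms4a4c. In summed reads Ms4a6d stood at 146.9, 178.8, 122.3, 185.7, 115.9 and 183.5 RPM. The 3 groups without Apoe lay above the 3 groups with it, by a narrow margin. Parts of a group, here the plates named in the well titles, overlapped between groups: the plates of C57BL/6 ranged from 115.8 to 187.2 RPM and those of C57BL/6-ApoeKO from 107.5 to 259.3 RPM. With every cell thinned to 100000 reads, 26.8% to 39.1% of cells held a Ms4a6d read. With the groups ordered by this share, the exact 95% intervals of neighbours overlapped. Those of the hippocampus groups did not, at 21.67% to 32.52% in APP/PS1 and 32.89% to 43.82% in APP/PS1-ApoeKO. These intervals cover only the drawing of cells within a group and leave out the spread between animals. Both hippocampus groups also differ in age and lane, so the gap cannot be assigned to Apoe.

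Ms4a6b varied more between groups than Ms4a6d did. In summed reads it stood at 145.6 RPM in C57BL/6 cortex, 168.8 in C57BL/6-ApoeKO cortex, 28.5 in APP/PS1 cortex, 88.1 in APP/PS1-ApoeKO cortex, 23.7 in APP/PS1 hippocampus and 120.9 in APP/PS1-ApoeKO hippocampus. Both APP/PS1 tissues with Apoe were low, and every other group was at least at the level of APP/PS1-ApoeKO cortex. The difference lay mainly in how many cells held a read. After thinning, a Ms4a6b read was found in 29.8%, 33.4%, 7.40%, 20.7%, 7.35% and 27.3% of cells in the group order. In cells that held one, the median level was 398.6, 398.2, 349.7, 315.4, 179.7 and 402.5 RPM. In the summed levels, fewer cells with the RNA and less RNA per cell cannot be told apart.

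Ms4a6c was lower and rested on few cells. Its level was 10.95, 25.6, 6.16, 33.2, 6.84 and 32.8 RPM. The 3 groups without Apoe were again the higher ones. The 5 cells with most reads gave 46.7% of its reads in C57BL/6 cortex and 81.9% in APP/PS1 hippocampus, against 20.2% in APP/PS1-ApoeKO hippocampus. After thinning, 7.06%, 10.4%, 3.22%, 11.2%, 2.94% and 15.05% of cells held a Ms4a6c read.

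**Figure D2:**
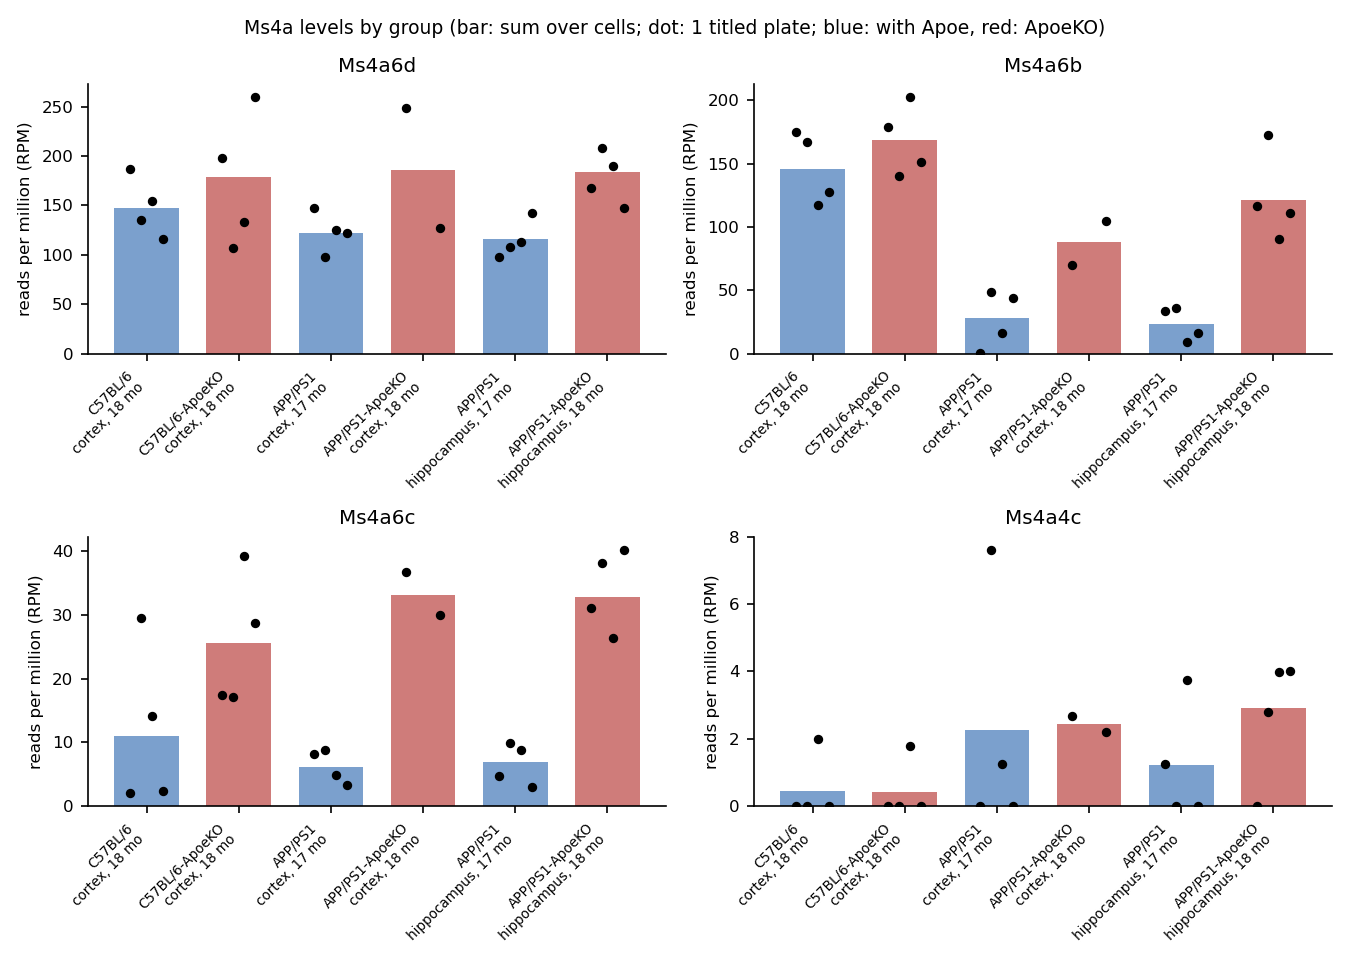
Summed level of Ms4a6d, Ms4a6b, Ms4a6c and Ms4a4c in each of the 6 groups, in RPM, with dots for the titled plates of the group. Ms4a6b is lowest in the APP/PS1 groups with Apoe (28.5 and 23.7 RPM), Ms4a6c is higher in the 3 groups without Apoe, and Ms4a6d stays between 115.9 and 185.7 RPM.

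Ms4a4c, a relative of the T cell gene Ms4a4b, was carried by single cells. It stood at 0.46, 0.43, 2.25, 2.43, 1.22 and 2.91 RPM, from 1, 1, 4, 4, 3 and 5 cells. The groups without amyloid transgenes thus rested on 1 cell each. Ms4a7 had 20 reads in 1 cell of APP/PS1 cortex, 3 reads in 1 cell of APP/PS1-ApoeKO cortex and 412 reads in 3 cells of APP/PS1 hippocampus. The other 3 groups had none. Taking 3 cells as the limit that a count of 0 allows, the share of cells with a read was up to 0.920% in C57BL/6, 0.958% in C57BL/6-ApoeKO and 0.935% in APP/PS1-ApoeKO hippocampus. Of the 5 cells with Ms4a7, 2 carried markers of another cell type by the rule above. Their summed homeostatic level had a median of 16132 RPM, against 45446 RPM in cells without Ms4a7. Ms4a4a had 2 reads, both in 1 cell of APP/PS1-ApoeKO hippocampus whose 12 activated microglia genes summed to 18489 RPM, against a median of 1565 RPM in the other cells.

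The other 6 Ms4a genes were nearly silent. Ms4a1, which encodes CD20, Ms4a4d and Ms4a5 had no read, Ms4a4b had 3 reads, Ms4a8a had 1, and Ms4a14 was read in 3 cells. Tmem176a and Tmem176b, related membrane genes on chromosome 6, were common instead, with reads in 582 and 943 cells. Tmem176a stood at 152.5 to 223.6 RPM and Tmem176b at 306.05 to 615.6 RPM over the groups.

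The first question of the design was what the loss of Apoe does beside amyloid. In APP/PS1 cortex without Apoe, Ms4a6b was 3.09-fold higher than with Apoe (95% counting interval 2.98 to 3.21) and Ms4a6c 5.38-fold higher (5.02 to 5.78). Ms4a6d was 1.52-fold higher (1.49 to 1.55) and Ms4a4c 1.08-fold. Intervals cover counting error only, since copies of 1 molecule made in amplification cannot be told apart. There were 4 titled plates with Apoe, and only 2, of 1 lane, without it. Plates did not overlap for Ms4a6b (0.364 to 48.5 RPM with Apoe, 69.9 to 104.8 without) or for Ms4a6c (3.36 to 8.77 against 29.9 to 36.7). For Ms4a6d they did, and leaving out the third titled plate took its log2 ratio from 0.60 to 0.07.

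Members were called apart when log2 ratios, taken after 0.5 RPM was added, reached 2-fold, among genes with at least 1 RPM on average over the groups. Of the 6 members 4 met that floor, all but Ms4a4a and Ms4a7. Ms4a6b and Ms4a6c were past 2-fold in APP/PS1 cortex, where 26.6% of the 12703 measured genes were. The median log2 ratio of the 4 members was 1.11, against 0.19 over all measured genes. In the same comparison 9 of 12 activated microglia genes were at least 2-fold lower, among them Clec7a and Itgax, and 1 of 10 homeostatic genes was higher (Fcrls). Of 8 genes listed as the Trem2 chain, which are that lipid receptor and genes grouped with it, only Clec7a was past 2-fold. Clec7a is also among the lower activated genes just counted, and no other gene of the chain was past 2-fold. Whether the shift in activated cells has a part in the Ms4a values was not tested.

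The hippocampus gave similar sizes. Ms4a6b was 5.11-fold higher in APP/PS1-ApoeKO than in APP/PS1 hippocampus (4.93 to 5.29), and Ms4a6c 4.79-fold (4.48 to 5.12). Ms4a6d was 1.58-fold higher (1.55 to 1.61). Ms4a4c was 2.38-fold higher (2.00 to 2.83), resting on 5 cells against 3, and did not pass 2-fold once 0.5 RPM was added (log2 0.98). Plates of the pair did not overlap for Ms4a6b (8.97 to 35.9 against 90.4 to 172.3 RPM) or for Ms4a6c (3.06 to 9.86 against 26.4 to 40.2 RPM), nor for Ms4a6d (98.3 to 142.02 against 147.01 to 208.06 RPM). Past 2-fold were 2 members, in a comparison where 21.1% of measured genes were, and the median log2 ratio was 1.58, against 0.07 for all genes. Of the activated genes 4 of 12 were at least 2-fold lower and 2 higher. In both tissues the groups set against each other were 1 month apart in age and sequenced in separate lanes, which cannot be told apart from Apoe.

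Without amyloid, the loss of Apoe went with smaller differences. Ms4a6c was 2.34-fold higher in C57BL/6-ApoeKO than in C57BL/6 cortex (2.23 to 2.46), Ms4a6d 1.22-fold (1.199 to 1.24), Ms4a6b 1.16-fold (1.14 to 1.18) and Ms4a4c 0.94-fold. Only Ms4a6c was past 2-fold, among 18.6% of measured genes. The median log2 ratio of the members was 0.25, against 0.04 for all genes. This pair shares both lanes, and the lanes disagreed. Ms4a6c was 1.16-fold higher in the first shared lane (1.08 to 1.24) and 4.52-fold in the other (4.20 to 4.86), Ms4a6b 0.945-fold and 1.43-fold, and Ms4a6d 0.967-fold and 1.501-fold. Titled plates overlapped for Ms4a6c, at 2.11 to 29.4 RPM in C57BL/6 and 17.2 to 39.2 RPM in C57BL/6-ApoeKO. Its log2 ratio of 1.19 ranged from 0.72 without the fourth plate to 2.19 without the second, and was 0.82 when cells instead of reads had equal weight. In this comparison 9 of 13 interferon response genes were at least 2-fold higher and 1 lower, and 6 of 12 activated microglia genes were higher and 0 lower.

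The second question was what amyloid does. With Apoe present, APP/PS1 cortex held 0.196 times the Ms4a6b level of C57BL/6 cortex (0.190 to 0.201), or 5.11-fold less. Plates did not overlap, at 117.1 to 174.5 RPM in C57BL/6 and at most 48.5 RPM in APP/PS1. These groups were 1 month apart in age and sequenced in separate lanes, which cannot be told apart from amyloid. Ms4a6c was 0.563 times (0.525 to 0.603) and Ms4a6d 0.832 times (0.819 to 0.846) the C57BL/6 level. Ms4a4c was 4.90-fold higher (3.97 to 6.10), from 4 cells against 1, and its log2 ratio of 1.52 became -0.22 without the second titled plate. Past 2-fold were Ms4a6b, lower, and Ms4a4c, higher, among 19.1% of measured genes. The members' median log2 ratio was -0.52, against -0.10 over all genes. Of the activated microglia genes 10 of 12 were at least 2-fold higher, and 8 of 13 interferon genes, with 1 lower.

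Without Apoe, the same comparison between APP/PS1-ApoeKO and C57BL/6-ApoeKO cortex gave Ms4a6b at 0.522 times (0.508 to 0.536), short of 2-fold at a log2 ratio of -0.93. Ms4a6c was 1.29-fold higher (1.23 to 1.36) and Ms4a6d 1.04-fold (1.02 to 1.06). The log2 ratio of Ms4a6d was 0.05 by read totals and -0.04 by edgeR's TMM library sizes, so it has no stable direction. Ms4a4c was 5.62-fold higher (4.33 to 7.36), from 4 cells against 1, and was the 1 member past 2-fold, among 21.4% of measured genes. The members' median was 0.21, against 0.05 over all genes. Activated genes were past 2-fold for 3 of 12 upward and 2 downward. The groups of this comparison were sequenced in separate lanes, which cannot be told apart from amyloid.

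The third comparison was between tissues. In APP/PS1 mice the hippocampus held 0.831 times the cortex level of Ms4a6b, 1.11 times that of Ms4a6c, 0.948 times that of Ms4a6d and 0.544 times that of Ms4a4c. None was past 2-fold, while 15.9% of measured genes were. The 2 shared lanes went opposite ways for Ms4a6b, at 1.33 and 0.419 times, and for Ms4a4c, at 0.128 and 3.10 times. In APP/PS1-ApoeKO mice the ratios were 1.37 for Ms4a6b, 0.988 for Ms4a6c, 0.988 for Ms4a6d and 1.195 for Ms4a4c. Again none was past 2-fold, against 21.5% of measured genes. The cortex and hippocampus cells used from APP/PS1-ApoeKO mice shared no lane, so lane and tissue cannot be told apart there. The members' medians were -0.17 (0.00 over all genes) and 0.10 (-0.11). These 7 comparisons share groups, so they are not independent of each other.

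**Figure D3:**
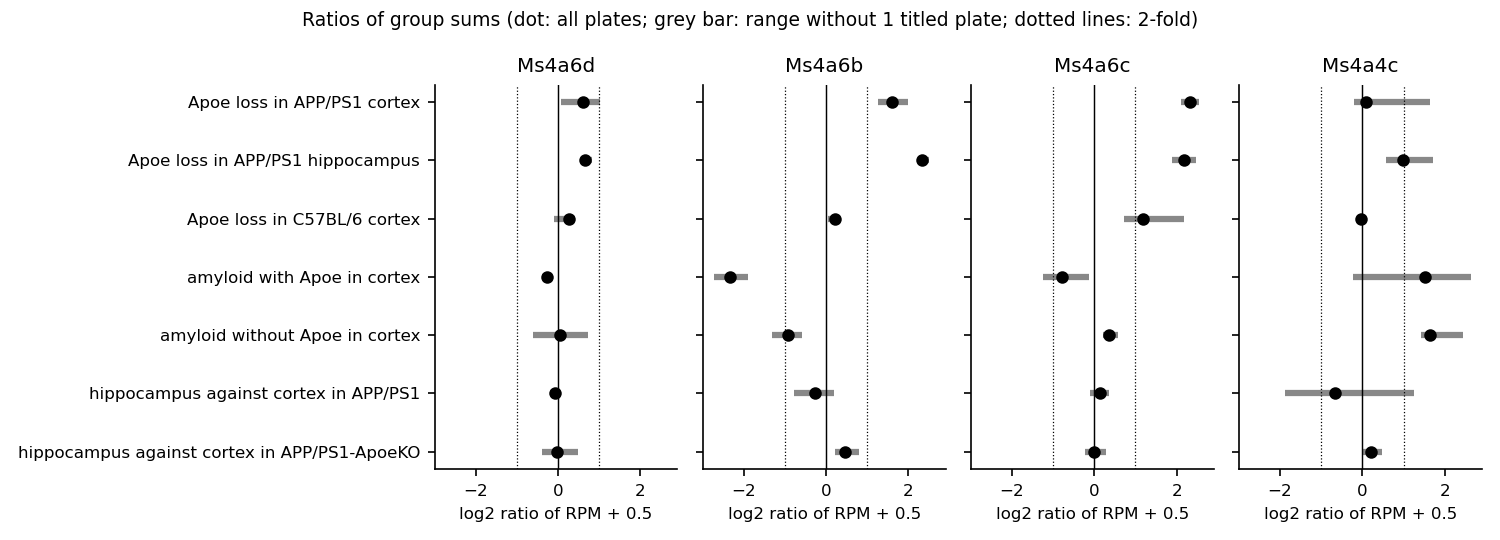
Log2 ratio of summed levels, taken after 0.5 RPM was added, for the Ms4a members in the 7 comparisons of group against group. Grey bars give the range of this ratio with each titled plate left out in turn, and dotted lines mark 2-fold. Ms4a6b and Ms4a6c lie above 2-fold for Apoe loss in both APP/PS1 tissues, and Ms4a6b lies below it for amyloid with Apoe.

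A fit over the 6 group sums gives the only test of these terms, with Apoe loss, amyloid and tissue as additive terms and 2 residual degrees of freedom. With edgeR's quasi-likelihood test and Benjamini-Hochberg adjustment no member was called. For Apoe loss, 0.0275% of 18171 genes (5) were called at an adjusted p under 0.05. Ms4a6c had a log2 fold change of 1.85 (SE 0.35, p = 0.0035, adjusted p = 0.49), Ms4a6b 1.28 (SE 0.44, adjusted p = 0.63) and Ms4a6d 0.39 (SE 0.14, adjusted p = 0.63). DESeq2 called 6.51% of 15771 genes for Apoe loss, among them Ms4a6c (adjusted p = 3.5e-05) and Ms4a6b (adjusted p = 0.0082).

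For amyloid, edgeR called 0% of 18171 genes (808 had an unadjusted p under 0.05) and DESeq2 2.32% of 15362. Ms4a6b had a log2 fold change of -1.74 in the edgeR fit, which did not pass (SE 0.53, adjusted p = 0.92), and was called by DESeq2 (log2 -1.73, adjusted p = 0.0088). Ms4a6c and Ms4a6d had edgeR log2 values of -0.24 and -0.09. For tissue, edgeR called 0% of 18171 genes, with 573 at an unadjusted p under 0.05. The 3 Ms4a6 copies had log2 values of 0.27, 0.16 and 0.04. Of the 13 interferon genes 0 were called for any term by edgeR, and of the 12 activated genes likewise 0.

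Class II reads define the other split. A cell counted as class II-positive when it held at least 1 read of H2-Aa, H2-Ab1 or H2-Eb1, the chains that form the surface complex. This held for 27, 22, 50, 12, 34 and 33 cells in the group order, and 1535 cells had none. Among the positive cells 47 held only 1 to 9 such reads. The median read total was higher in cells with class II reads in 6 of 6 groups. It was 498744 against 443166 in APP/PS1-ApoeKO cortex, 562896 against 437401 in APP/PS1-ApoeKO hippocampus and 726110 against 685572 in C57BL/6-ApoeKO. The gap was smaller in C57BL/6 (777508 against 761720), APP/PS1 cortex (620096 against 615541) and APP/PS1 hippocampus (583188 against 581149).

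Ms4a6d, the common copy, was lower in class II-positive cells in 6 of 6 groups. Its level with against without class II reads was 145.7 against 147.05 RPM in C57BL/6, 128.6 against 183.2 in C57BL/6-ApoeKO and 71.96 against 131.9 in APP/PS1 cortex. It was 116.8 against 191.8 RPM in APP/PS1-ApoeKO cortex, 67.2 against 123.07 in APP/PS1 hippocampus and 57.5 against 200.3 in APP/PS1-ApoeKO hippocampus. In C57BL/6 the ratio was 0.991, with a counting interval of 0.955 to 1.03 that includes 1, and elsewhere it was 0.287 to 0.702. Of class II-positive cells 48 (26.97%) held a Ms4a6d read, and of the others 550 of 1535 (35.8%).

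In a paired fit over the 12 sums, with the group as a block, the log2 fold change of Ms4a6d was -0.78 (SE 0.24, p = 0.010), which did not pass in edgeR's quasi-likelihood test (adjusted p = 0.35). Over all alternatives of this fit it lay between -0.99 and -0.44, and the adjusted p between 0.12 and 0.66. With cells thinned to equal depth it was -0.99. The median over all fitted genes was -0.96, lower than that of Ms4a6d. In this fit 0% of 16959 genes were called by edgeR, 2405 had an unadjusted p under 0.05, and DESeq2 called 13% of 15768 genes, 94 higher and 1963 lower. Of 13 interferon, 12 activated, 10 homeostatic and 8 Trem2 chain genes edgeR called 0.

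Ms4a6b and Ms4a6c had no common direction. Ms4a6b was 93.2 against 150.6, 85.6 against 176.07, 49.8 against 24.4, 117.4 against 85.5, 59.8 against 18.4 and 67.8 against 128.01 RPM, so higher with class II reads in 3 groups and lower in 3. Its log2 fold change was 0.09 (SE 0.42, edgeR adjusted p = 0.95). Ms4a6c was likewise higher in 3 groups and lower in 3, from 3.38 against 6.69 RPM in APP/PS1 cortex to 50.3 against 23.5 in C57BL/6-ApoeKO. Its log2 fold change was -0.19 (SE 0.65, edgeR adjusted p = 0.92). Some of these positive sums rest on 2 cells with a read.

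Ms4a4c was read in a larger share of class II-positive cells, 9 of them (5.06%), than of the others, 9 of 1535 (0.586%). Its level was 5.30 against 0, 5.38 against 0, 3.67 against 1.98, 7.37 against 2.00, 9.54 against 0 and 12.4 against 1.65 RPM, higher with class II reads in 6 of 6 groups. In 3 of those cells, among them the lone cells of C57BL/6 and C57BL/6-ApoeKO, only 1 to 3 class II reads were present. The fitted log2 fold change of 6.46 (SE 3.24) did not pass with edgeR (adjusted p = 0.38) and did with DESeq2 (7.29, adjusted p = 5.9e-04). When at least 10 class II reads were asked for it became -3.28 (edgeR adjusted p = 0.76). That setting also leaves out APP/PS1-ApoeKO cortex, which then has fewer than 10 positive cells. Without that group, but with 1 read still enough, it was 8.86 (edgeR adjusted p = 0.41), and with cells thinned to equal depth 1.91 (edgeR adjusted p = 0.77). Ms4a7 was in 2 class II-positive and 3 other cells, and the 1 cell with Ms4a4a was positive, with 3184 class II reads.

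**Figure D4:**
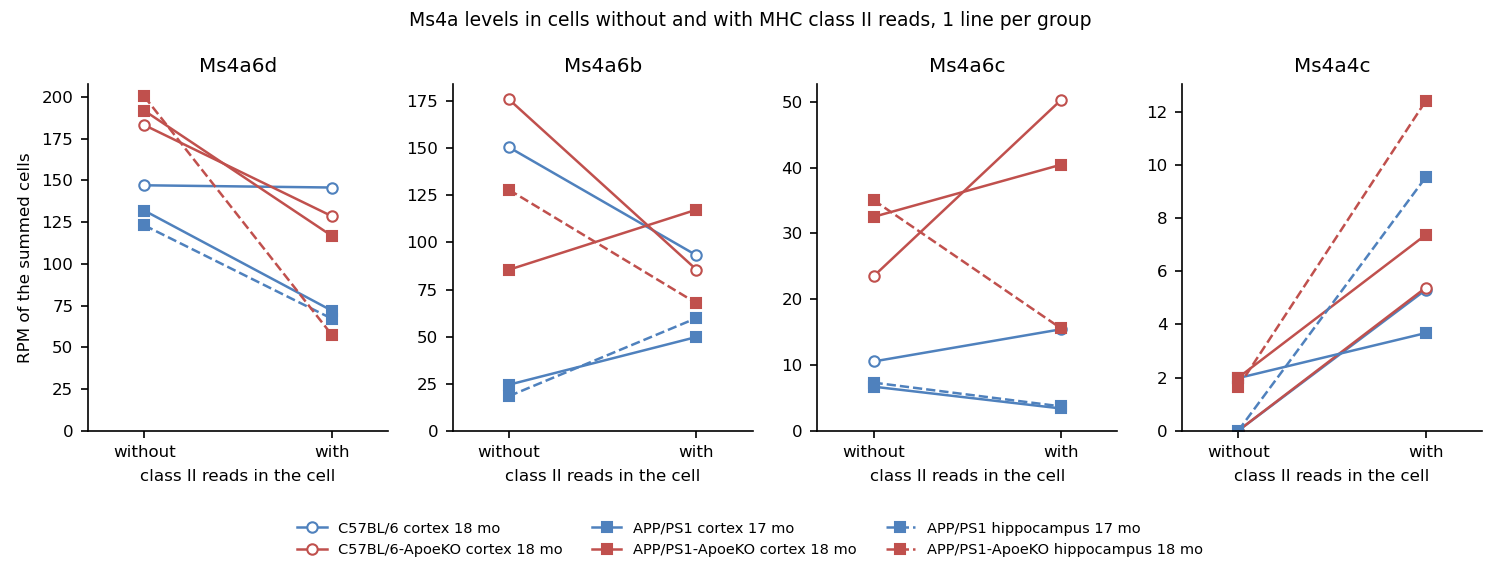
Level of Ms4a6d, Ms4a6b, Ms4a6c and Ms4a4c, in RPM, in cells with and without class II reads, joined within each of the 6 groups. Ms4a6d is lower with class II reads in every group, Ms4a4c is higher in every group from 18 cells in all, and Ms4a6b and Ms4a6c differ in both directions.

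Most cells with a read of the 3 Ms4a6 copies held only 1 of them. Of 1713 cells 825 (48.2%) held none of Ms4a6b, Ms4a6c and Ms4a6d, 668 held 1 of them, 10.9% held 2 and 34 (1.98%) held all 3. The share with none was 42.9%, 37.4%, 61.7%, 44.4%, 65.6% and 38.01% in the group order, without thinning. Both APP/PS1 groups with Apoe had the larger shares, as for Ms4a6b itself.

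**Figure D5:**
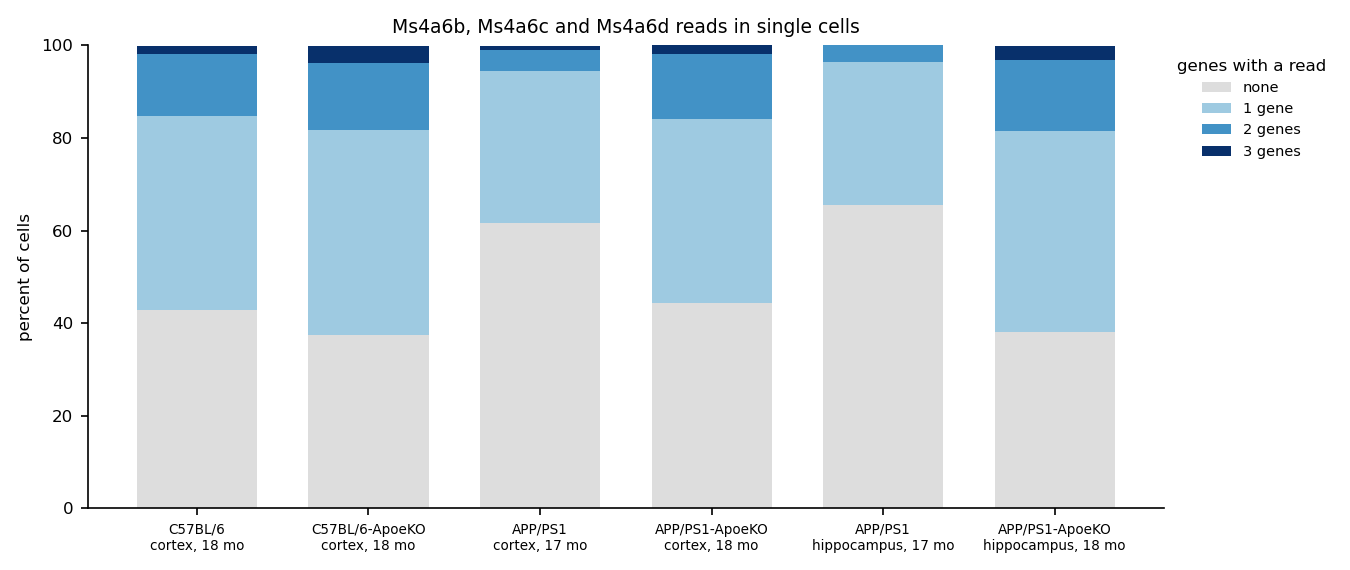
Percent of cells in each of the 6 groups with reads of none, 1, 2 or 3 of Ms4a6b, Ms4a6c and Ms4a6d. Cells with none make up 61.7% of APP/PS1 cortex and 65.6% of APP/PS1 hippocampus, and 37.4% to 44.4% of the other groups.

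Ms4a6b and Ms4a6c were found together more often than the product of their shares. They shared 73 cells, where the product over all cells gives 36.1. Ms4a6c was in 19.1% of cells with Ms4a6b and in 6.69% of the rest. The pooled product mixes groups with unlike shares. In the group order the shared cells were 18, 25, 3, 7, 2 and 18. The products within groups were 8.37, 13.6, 1.08, 4.60, 0.66 and 14.7. The share of cells with Ms4a6c was higher in cells with Ms4a6b in each of the 6 groups, for example 17.8% against 4.00% in C57BL/6 and 12.5% against 3.83% in APP/PS1 cortex. Whether reads shared between these copies enter this count depends on their handling, which is not given, and their part was not tested. Ms4a6b and Ms4a6d shared 140 cells (product 133.4), and Ms4a6c and Ms4a6d 75 (product 56.6). Across cells the Pearson correlation of their log values was 0.10 for Ms4a6b with Ms4a6c, 0.00 for Ms4a6b with Ms4a6d and 0.03 for Ms4a6c with Ms4a6d, over cells that share libraries and depth.

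With the cells of all groups pooled, those with Ms4a6b, Ms4a6c, Ms4a6d or Ms4a4c also held more interferon response reads. The 13 interferon genes had a median sum of 43.4 RPM in cells with Ms4a6b and 12.1 RPM without, 72.4 against 14.3 for Ms4a6c, 35.7 against 10.7 for Ms4a6d and 270 against 18.3 for Ms4a4c. For Ms4a7, with reads in 5 cells, it was 8.76 against 19.5 RPM, and the 1 cell with Ms4a4a had 640.6 RPM. Cells with Ms4a6b were also deeper, with a median of 647044 reads against 568319. The mean over groups of the correlation with the interferon sum was between 0.03 and 0.07 for the 3 copies, too weak to describe a link. Within single groups it took both signs, from -0.09 to 0.25 for Ms4a6b, -0.02 to 0.23 for Ms4a6c and -0.05 to 0.12 for Ms4a6d. No other gene was named as similar: the highest mean correlation over the 6 groups was 0.108 among 4770 genes for Ms4a6b and 0.122 among 4769 for Ms4a6d, below the 0.2 asked for.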

How the data were processed

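The deposited table holds raw read counts per gene and cell, made by the authors from reads of 1878 wells. The labels list 3072 wells, 384 in each of 8 groups, of which 6 have columns. Per the submitters' processing notes, which give no roles, the build was mm10 and the tools included featureCounts 1.5.1, STAR 2.5.2 and Seurat 2.3.1. The 1713 cells with a read total in the labels were used, in the order of the text 326, 313, 311, 169, 273 and 321 a group. The other 165, all APP/PS1-ApoeKO cortex, entered alternatives only. Group values are sums of counts over cells. RPM divides by the summed reads, and RPKM also by the exon length in GENCODE on GRCm38. Ratios have exact conditional binomial intervals of 95%, levels Poisson and shares Clopper-Pearson intervals.

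Tests used edgeR 4.0.16 (glmQLFit and glmQLFTest), with p-values adjusted by Benjamini-Hochberg over all genes fitted, and DESeq2 1.42.0 and limma 3.58.1 as alternatives, in R 4.3.3 with Python 3.11.15, numpy 2.4.6, scipy 1.17.1, pandas 2.3.3 and Biopython 1.88. The fit over group sums has 6 sums, and the class II fit has 12 sums with 5 residual degrees of freedom and at least 10 cells a sum. The scripts were tested on simulated data. The members, the 15 gene lists (107 genes), the tests and the alternatives were chosen with earlier results of these data known, and the motifs after the data were seen. Named were the members, the other Ms4a genes, Tmem176a and Tmem176b, members of the lists, and up to 5 genes per common member with a mean correlation of at least 0.2 over groups. A deposited table of normalized values was not used. Where nothing says that cells came from separate animals, p-values measure only the spread between these sums.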

Additional observations from a re-analysis of the deposited data

Results flagged for a closer look

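For 4 members the same comparison went opposite ways in the presence and absence of Apoe, each from 1 sample a group, so the difference was not tested. Amyloid in cortex went with 0.563 times the Ms4a6c level where Apoe was present and with 1.29 times where it was absent, a difference of -1.20 between the log2 ratios. For Ms4a6d the values were 0.832 and 1.04, a difference of -0.32, where the second ratio changes side with the scaling of library sizes. Hippocampus against cortex gave Ms4a6b 0.831 times in APP/PS1 and 1.37 times in APP/PS1-ApoeKO mice, a difference of -0.72, and Ms4a4c 0.544 and 1.195 times, a difference of -1.14. The lanes of the APP/PS1 pair went opposite ways for both genes. The tissues of the APP/PS1-ApoeKO pair shared no lane, so lane and tissue cannot be told apart there.

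The APP/PS1-ApoeKO cortex cells without a read total in the labels, which entered no comparison above, also held member reads. Ms4a6b stood there at 106.6 RPM (40 cells), Ms4a6c at 39.4 RPM (31 cells), Ms4a6d at 136.4 RPM (65 cells) and Ms4a4c at 6.65 RPM (4 cells). In the cells of the same group that were used, the levels were 88.1, 33.2, 185.7 and 2.43 RPM. Ms4a4a and Ms4a7 had no read in these added cells.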

How the results depend on the processing

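Each group is 1 sample of unnamed animals, so counting intervals leave out the spread between animals, and whether plates or lanes hold different animals is not known. Few cells, 1 to 18 in all, limit the precision of Ms4a4a, Ms4a4c and Ms4a7. No paired analysis was possible because the labels give no animals and the wells carry no replicate numbers that link groups; the class II fit alone has the group as a block.

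Of 95 recomputed counts of members past 2-fold, 79 were within 1.5 times the reported one. For Apoe loss in C57BL/6 cortex the count became 0 by the mean over cells of RPM and 0 within the first shared lane, and 0 to 1 with plates left out. For amyloid with Apoe it was 1 with 2 RPM added, 1 among genes with at least 20 RPM and reads in 10% of cells, and 1 to 3 with plates left out, where the log2 ratio of Ms4a4c ranged from -0.22 to 2.64. For amyloid without Apoe it was 0 with 2 RPM added, 0 with the 20 RPM filter, 2 with TMM sizes, 2 by the mean over cells and 1 to 2 with plates left out. For hippocampus against cortex in APP/PS1 it was 1 and 2 within the lanes and 0 to 1 with plates left out. In the 4 cases of the 20 RPM filter and 2 RPM added, Ms4a4c no longer passes by construction; elsewhere the cause was not tested.

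DESeq2 called 1 member for class II reads (13.05% of genes with an adjusted p), 2 for Apoe loss (6.51%), 1 for amyloid (2.32%) and none for tissue (1.24%), and on the 4 cortex sums edgeR called 0% of genes for Apoe loss. In the class II fit, log2 fold changes turned for Ms4a4c (-3.28) and Ms4a6b (-0.24) with at least 10 class II reads. Ms4a6b was -0.017 with thinned cells, -0.030 without cells carrying other markers, -0.13 with all cells and -0.23 to 0.33 with groups left out. Ms4a6c was 0.029 with Cd74 reads included, 0.074 without marker cells and -0.44 to 0.011 with groups left out, and Ms4a7 was -0.13 by limma and -0.15 to 5.31 with groups left out. In the fit over group sums Ms4a4c for Apoe loss was -0.14 on the cortex sums and -1.50 without marker cells, and for tissue 0.28 and Ms4a6c -0.38 without marker cells. All were short of the threshold, except the DESeq2 calls. Adding BE692007 reads to Ms4a6c, an alternative chosen after seeing the data, left its log2 ratios for Apoe loss at 2.29, 1.89 and 1.21.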
